A study of Mus musculus with 10 samples.

Results

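Loss of Pcbp1 was examined in mouse B cells grown for 4 days into induced germinal center B cells, called iGCB cells. The comparison used 6 of the 10 RNA-seq libraries of the series, namely 3 knockout (KO) and 3 control (WT) libraries of the day 4 culture, taken by their labels. KO cells carried a floxed Pcbp1 gene and Mb1-Cre. WT cells are described by genotype only, and the labels do not say whether they carried Cre or the floxed allele, so effects of Cre and of the deletion cannot be told apart here. Both groups started from primary spleen B cells that were cultured on 40-LB cells, fibroblasts that present CD40 ligand and the survival factor BAFF. The other 4 libraries were naive B cells on day 0 (2 WT, 2 KO). Strain, age and sex are not in the labels. Nor do they tell separate animals from repeat cultures of 1 animal. The p-values below therefore refer to the spread among these 6 libraries, part of which may be technical.

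Pcbp1 encodes poly(rC)-binding protein 1, a protein that binds cytosine-rich stretches of RNA and also delivers iron to ferritin. Mb1-Cre is made from the Cd79a gene, so it is active throughout the B cell lineage. On CD40 ligand feeders, B cells divide, switch from IgM to other antibody classes and take on a germinal center-like state, from which some go on to become plasmablasts. That last step is driven by the transcription factors Blimp-1 (Prdm1) and Xbp1, which enlarge the endoplasmic reticulum (ER) and the secretory pathway to make antibody.

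Each of the 6 libraries held 33400672 to 41824901 counts. Levels are given in CPM, a gene's counts scaled to its library's total, always in the order of libraries 1, 2 and 3. Libraries of 1 genotype correlated at 0.976 to 0.983 across genes, and libraries of different genotype at 0.963 to 0.971. The first principal component, with 41.3% of the variance, separated KO from WT. WT 3 stood furthest from its own group: chi-square per degree of freedom was 99.9 against WT 1 and 89 against WT 2, and 24.4 to 45.9 for the other pairs within a genotype. All 6 libraries expressed Ddx3y, a gene of the Y chromosome (117 to 156 CPM), so male cells were present in every one.

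The cells carried the B cell genes that their label implies. The 15 B cell identity genes, among them Cd79b and Pax5, summed to 13107 to 13807 CPM in WT and 13034 to 15516 CPM in KO. Of these, 2 passed the test, 1 in each direction (13.3% called, against 5.61% over all genes tested).

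Pcbp1 was nearly lost from the KO libraries. Its level was 146, 321 and 328 CPM in WT and 3.64, 1.98 and 2.56 CPM in KO, so the KO mean was 1.03% of the WT mean (difference -6.6 ± 0.36 on the log2 scale ± SE, adjusted p = 7.04e-06). WT 1 held less Pcbp1 than WT 2 and WT 3, but every WT library lay far above every KO library. The gene lies at chr6:86524492-86526321 in the mm10 build. The noncoding gene 1600020E01Rik (chr6:86526247-86582466) runs antisense to it and overlaps its start, since Pcbp1 lies on the minus strand. It fell from 11.3, 18.6 and 15 CPM in WT to 0.168, 0.124 and 0.175 CPM in KO (-6.55 ± 0.33, adjusted p = 7.04e-06), and since the strand setting of the counting is not given in the sources used here, reads of the overlap cannot be assigned to either gene. Pcbp2, the closest relative of Pcbp1, did not pass the test. It stood at 402, 437 and 429.9 CPM in WT and 455, 419 and 409 CPM in KO (0.01 ± 0.12, adjusted p = 0.966).

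Of 15377 genes tested, 329 were higher in KO cells (2.14%) and 534 were lower (3.47%) at an adjusted p under 0.05 (edgeR quasi-likelihood test, Benjamini-Hochberg adjustment). At an unadjusted p under 0.05 there were 2970. The lower genes included 176 antibody and T cell receptor V, D and J segments, and none of the higher genes was a segment. When the segments were left out before fitting, 15138 genes were tested, 296 were higher (1.96%) and 334 were lower (2.21%). All of these were also called with the segments in. The 5.61% called over all genes tested, set beside gene lists throughout, includes the segments. Fold changes hardly moved, by at most 0.00861 on the log2 scale, and 33 higher and 24 lower genes that are no segments lost the threshold. Their adjusted p reached at most 0.0605. Among the genes named below, Rpl6, Cdc6, Lig1, Tfrc and Bcl2a1d were lost in this way.

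The groups did not overlap for 328 of the 329 higher and 533 of the 534 lower genes. Over all 15377 genes tested, the groups were apart for 1963 that stood higher in KO and 1918 that stood lower. The calls came from the same 6 libraries, so this lack of overlap is no separate support for them. Genes named below for their fold or level were also chosen only among genes whose groups were apart. Changes of at least 2-fold were seen for 201 higher and 339 lower genes. The number of calls changed when single libraries were left out. Such fits also hold fewer libraries, so a lost call cannot be put down to the library left out. Over fits that each left out 1 library, the higher genes numbered 325 without WT 1, 195 without WT 2, 276 without WT 3, 167 without KO 1, 185 without KO 2 and 141 without KO 3. Lower genes numbered 516, 449, 554, 372, 358 and 303 in the same order. In all 6 of these fits 107 higher and 278 lower genes kept the threshold. A model of all 4 groups, which shares 1 estimate of the spread with the naive libraries, called 72 higher and 194 lower genes. It kept 50 of the 102 genes named here as past the threshold.

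**Figure D1:**
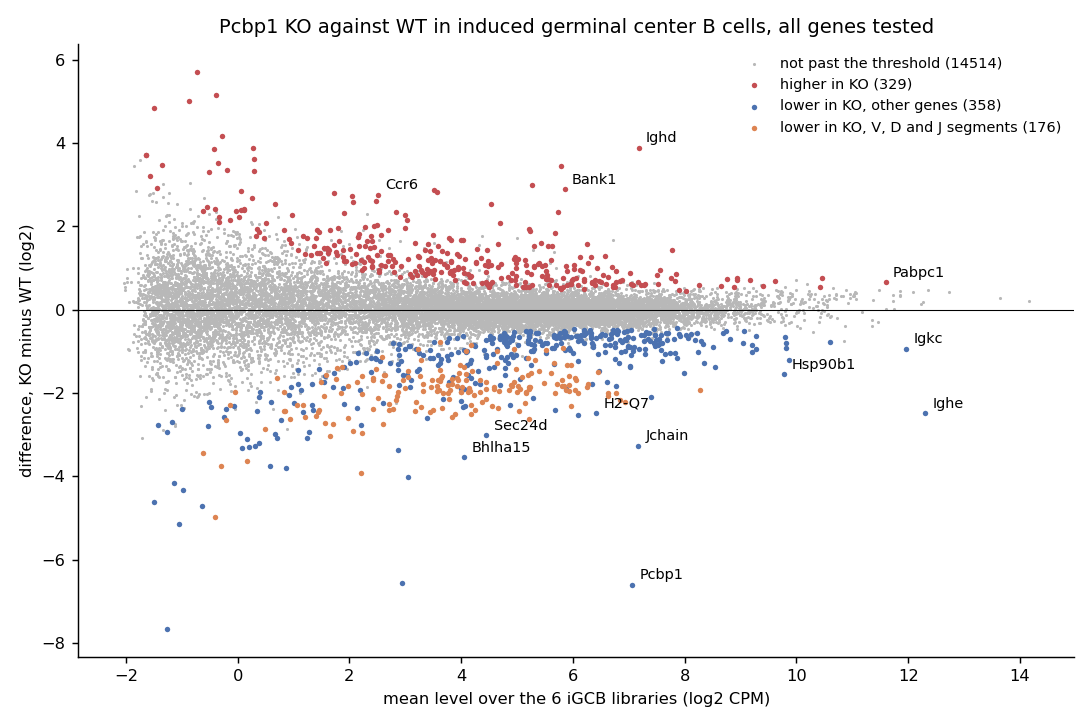
Difference between KO and WT (log2, vertical axis) against the mean level over the 6 iGCB libraries (log2 CPM, horizontal axis), 1 point per gene tested. The 176 V, D and J segments past the threshold lie below 0, Pcbp1 stands at -6.60, and Ighe and Igkc are the lower genes at the right edge.

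Many genes of the plasma cell program fell in KO cells. Of 24 program genes tested, 11 fell and 1 rose (50% called, against 5.61% over all genes tested). The median difference was -0.81, against 0.0043 over all genes tested. Prdm1, which encodes Blimp-1, the factor that starts the program, stood at 74.3, 34.5 and 37.7 CPM in WT and 12.5, 7.41 and 10.2 CPM in KO (-2.28 ± 0.30, adjusted p = 0.00136). Xbp1, the factor that builds up the secretory apparatus, stood at 1239.9, 1173 and 1103 CPM in WT and 631, 659 and 559 CPM in KO (-0.93 ± 0.13, adjusted p = 0.00192). For both genes each KO library lay below each WT library.

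The largest fold in this program was that of Bhlha15, which encodes Mist1, a factor of cells that secrete in bulk. Its level was 31.4, 28.8 and 31.3 CPM in WT and 1.65, 3.71 and 2.5 CPM in KO (-3.54 ± 0.26, adjusted p = 7.35e-05). Jchain, the peptide that joins IgM and IgA into polymers, fell from 255, 174 and 352 CPM to 22.1, 31.4 and 27.8 CPM (-3.26 ± 0.25, adjusted p = 7.92e-05). Fkbp11, an ER prolyl isomerase of antibody-secreting cells, fell from 3.69, 5.68 and 8.73 CPM to 0.785, 1.79 and 1.22 CPM (-2.26 ± 0.40, adjusted p = 0.0072). All 3 were low in every KO library. The gene that rose was Cd38, a surface enzyme that mouse plasma cells and germinal center B cells carry at a lower level than naive B cells: 30.3, 26 and 23.6 CPM in WT and 54.5, 58.5 and 56.5 CPM in KO (1.09 ± 0.14, adjusted p = 0.0012). Sdc1 and Irf4, chosen after their values were seen as the surface mark and an upstream factor of plasma cells, did not pass. Sdc1 stood at 28.9, 12.9 and 21.3 CPM in WT and 11.8, 10.9 and 10.6 CPM in KO (-0.92, adjusted p = 0.061), and Irf4 at 449, 506 and 455 CPM in WT and 374, 373 and 358 CPM in KO (-0.35, adjusted p = 0.12). In whole cultures like these, fewer plasmablasts and less of such RNA per cell cannot be told apart.

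**Figure D2:**
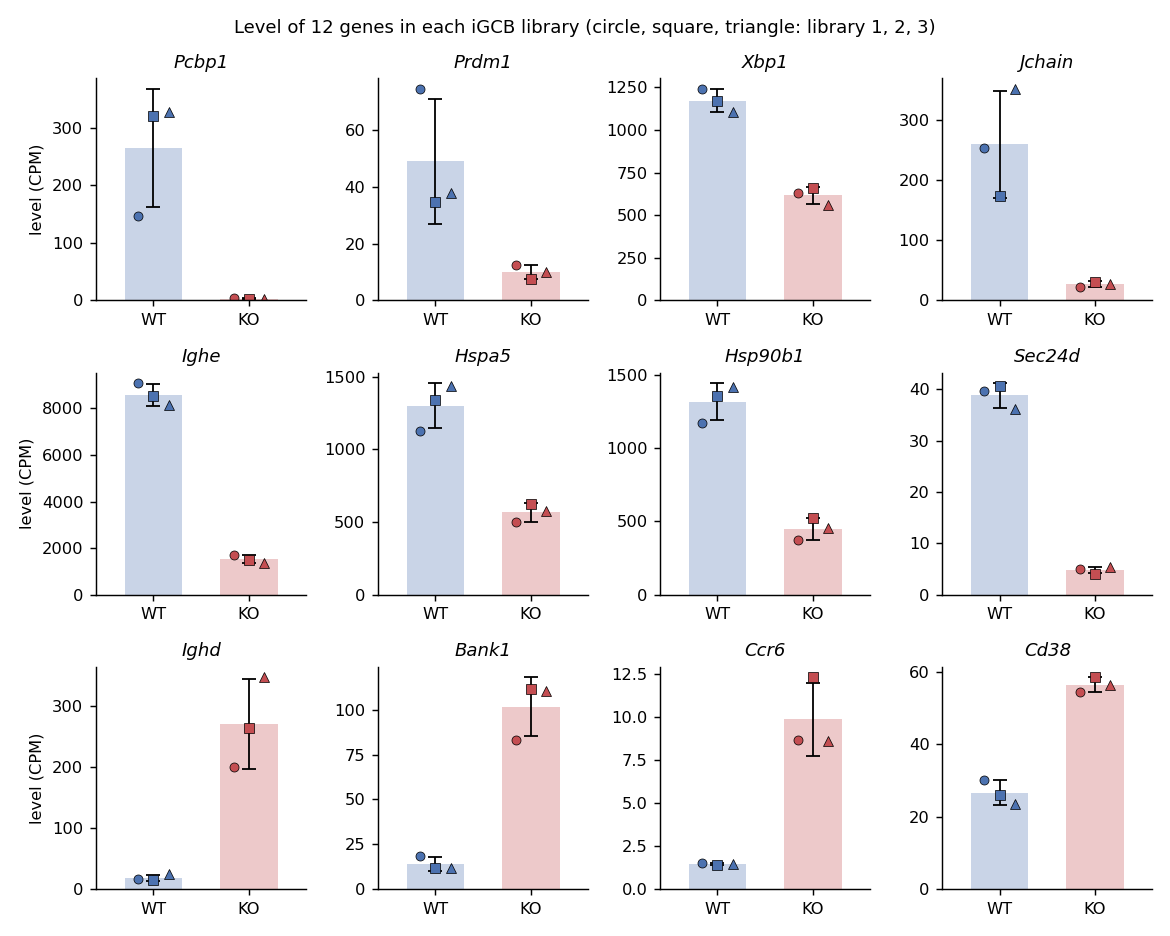
Level of 12 genes (CPM, vertical axes from 0) in the 3 WT and 3 KO iGCB libraries. Bars are group means, error bars are 1 SD and symbols are single libraries; no KO library reaches the WT range for the first 8 genes, and no WT library reaches the KO range for Ighd, Bank1, Ccr6 and Cd38.

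Many ER folding and unfolded protein response genes fell. Of 39 tested, 23 fell and 0 rose (59.0% called, against 5.61% over all genes tested). In all, 38 of 39 differences were below 0, with a median of -0.80. Together they took 1.30%, 1.30% and 1.34% of all counts in WT and 0.728%, 0.766% and 0.731% in KO, with groups that did not overlap (exact permutation test, two-sided, p = 0.1, the smallest that 3 against 3 libraries allow). Hspa5 encodes BiP, the main chaperone of the ER lumen. It stood at 1127, 1335 and 1432 CPM in WT and 497, 623 and 579 CPM in KO (-1.2 ± 0.15, adjusted p = 0.000982). Hsp90b1, the ER form of Hsp90, fell from 1172, 1354 and 1416 CPM to 374, 519 and 452 CPM (-1.55 ± 0.16, adjusted p = 0.00031). Each KO library held less of both than any WT library.

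Other chaperones and sensors fell as well. Creld2, a secreted ER stress protein, stood at 97.5, 127 and 151 CPM in WT and 32.9, 43.8 and 32.1 CPM in KO (-1.78 ± 0.18, adjusted p = 0.000354). Hyou1, a nucleotide exchange factor of BiP, stood at 321, 379.7 and 419.8 CPM and 114, 133 and 146 CPM (-1.51 ± 0.15, adjusted p = 0.000241). Ern1 encodes IRE1, the sensor that splices Xbp1 mRNA, and fell from 50.9, 36.7 and 32.5 CPM to 18.8, 12.9 and 13.6 CPM (-1.41 ± 0.21, adjusted p = 0.00249). The groups did not overlap for any of these 3. Calr, a lectin chaperone, stood at 1745, 1839.6 and 2269 CPM in WT and 1042, 1177 and 1207 CPM in KO (-0.77 ± 0.15, adjusted p = 0.0107). Its call did not hold without KO 1, largest adjusted p 0.0688. The count of lower genes in this list was 17 to 25 over the fits that left out 1 library, and 13 in the 4-group model.

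Many ER chaperone genes are known to carry the ER stress element, a sequence to which ATF6 and XBP1 bind together with the factor NF-Y. Its letters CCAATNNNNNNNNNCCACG were searched on both strands of the 250 bases before each start in RefSeq promoters of GRCm38.p6, the same assembly as mm10. They were found for 35 of 27025 genes with a promoter (0.130%), for 19 of 10503 genes tested (0.181%) and for 8 of 31 genes of the ER list that had a promoter (25.8%). Of the 19 genes tested, 8 fell and 0 rose, with a median of -0.52. The 8 were Creld2, Hsp90b1, Pdia6, Hspa5, Dnajc3, Derl3, Calr and Syvn1, all genes of ER protein folding or of the degradation of misfolded proteins. Derl3 is in the plasma cell list and the other 7 are in the ER list. The call of Calr did not hold without KO 1, largest adjusted p 0.0688, and that of Syvn1 without WT 1, WT 2, KO 1, KO 2 or KO 3, largest adjusted p 0.202. The 4 with the largest fold are printed 5′ to 3′ on their own strand, with the element in capitals, to show where it lies. In Creld2, and at the second site in Hsp90b1, it reads on the opposite strand, as CGTGG followed by the gap and ATTGG.
Creld2 (chr15:88819396-88819645, plus strand): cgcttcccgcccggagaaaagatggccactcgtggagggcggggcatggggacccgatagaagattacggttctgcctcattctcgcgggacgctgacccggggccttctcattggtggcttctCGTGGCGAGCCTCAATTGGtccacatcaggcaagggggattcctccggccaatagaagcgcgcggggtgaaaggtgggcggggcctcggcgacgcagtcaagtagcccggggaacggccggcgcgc
Hsp90b1 (chr10:86705445-86705694, minus strand): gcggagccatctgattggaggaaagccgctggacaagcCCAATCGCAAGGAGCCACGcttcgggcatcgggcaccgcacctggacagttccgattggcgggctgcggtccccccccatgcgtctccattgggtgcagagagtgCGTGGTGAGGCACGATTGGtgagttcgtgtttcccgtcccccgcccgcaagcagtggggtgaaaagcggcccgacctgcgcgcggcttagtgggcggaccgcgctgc
Pdia6 (chr12:17266339-17266588, plus strand): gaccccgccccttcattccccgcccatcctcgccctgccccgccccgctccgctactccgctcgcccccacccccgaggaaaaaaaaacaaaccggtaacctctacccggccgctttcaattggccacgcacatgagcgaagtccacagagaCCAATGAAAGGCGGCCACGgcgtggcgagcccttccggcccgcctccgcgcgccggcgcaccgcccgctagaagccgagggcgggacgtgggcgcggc
Hspa5 (chr2:34771840-34772089, plus strand): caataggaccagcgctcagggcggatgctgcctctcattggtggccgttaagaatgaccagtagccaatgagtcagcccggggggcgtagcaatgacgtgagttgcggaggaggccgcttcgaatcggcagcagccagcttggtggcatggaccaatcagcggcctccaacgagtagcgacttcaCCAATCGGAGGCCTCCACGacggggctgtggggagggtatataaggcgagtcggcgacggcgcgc
The match is a description of letters and does not show that a factor bound there.

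A shorter XBP1 element, TGACGTGG, was found for 163 of 27025 genes (0.603%) and for 93 genes tested, of which 7 fell and 1 rose (median -0.10). One of the 7 was Sec24d. The ATF4 element TGATGNAAN was found for 1052 genes (3.89%) and for 252 genes tested, of which 17 fell (6.75%) and 6 rose (2.38%), with a median of -0.0031. Of the 10503 tested genes that had a promoter 2.60% fell and 2.23% rose, with a median of 0.0066.

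**Figure D3:**
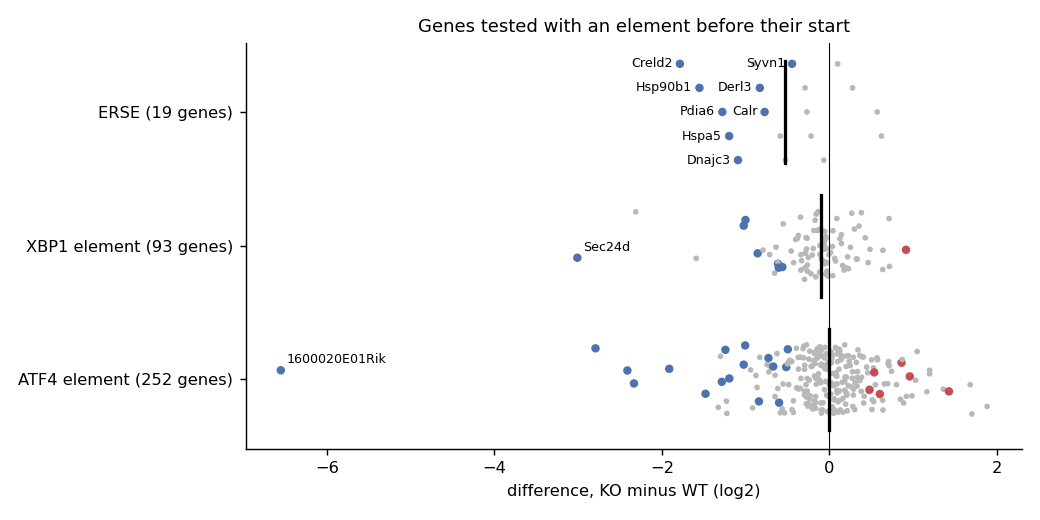
Difference between KO and WT (log2, horizontal axis) of every gene tested that holds the ER stress element (ERSE, 19 genes), the XBP1 element (93) or the ATF4 element (252) within 250 bases before its start. Blue points fell, red points rose, grey points did not pass the threshold and black bars are medians; the 8 named ERSE genes all lie left of 0.

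Genes for moving proteins into and out of the ER fell in part. Among 62 tested genes of the translocon, of N-glycosylation and of COPII transport, 19 fell and 0 rose (median -0.37). The share called was 30.6%, against 5.61% over all genes tested. Sec24d, 1 of 4 cargo adaptors of the COPII coat that buds vesicles from the ER, had by far the largest fold. It stood at 39.6, 40.6 and 36.1 CPM in WT and 4.99, 4.08 and 5.35 CPM in KO (-3.01 ± 0.16, adjusted p = 7.04e-06). Its spread within each group was small. The other 3 adaptors, given here after their values were seen, moved less: Sec24a by -0.68, Sec24b by -0.06 and Sec24c by -0.19, with adjusted p of 0.0469, 0.848 and 0.426. The call of Sec24a did not hold without WT 1, WT 2, KO 1, KO 2 or KO 3, largest adjusted p 0.172.

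Rpn1, a subunit of the oligosaccharyltransferase, stood at 273, 289 and 356 CPM in WT and 138, 162 and 144 CPM in KO (-1.05 ± 0.14, adjusted p = 0.00138). Lman1, a cargo receptor between ER and Golgi, fell from 147, 154 and 162 CPM to 77.5, 73.3 and 79.8 CPM (-1.01 ± 0.11, adjusted p = 0.000547). Spcs2, a subunit of signal peptidase, fell from 157, 165 and 210.3 CPM to 93.1, 108 and 84.1 CPM (-0.9 ± 0.15, adjusted p = 0.005). No KO library reached the WT range for these 3. The count of 19 in this list was smaller in other fits. It was 8 without KO 1, 8 without KO 3 and 6 in the 4-group model, and 13 to 18 without any other library.

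Few genes of the ATF4 branch of the stress response passed the test. Of 43 genes tested, 3 fell and 1 rose (9.30% called, against 5.61% over all genes tested), although 38 differences lay below 0 (median -0.35). At an unadjusted p under 0.05 there were 21, against 2970 of 15377 over all genes tested, and DESeq2 called 12 lower. Chac1, which degrades glutathione, stood at 3.52, 3.66 and 5.36 CPM in WT and 0.729, 0.865 and 0.756 CPM in KO (-2.41 ± 0.33, adjusted p = 0.00163). Eprs and Aars, which charge tRNAs with glutamate, proline and alanine, fell by 0.82 and 0.60 on the log2 scale (adjusted p = 0.00962 and 0.0347). Stc2, a secreted glycoprotein, rose from 3.46, 3.66 and 3.92 CPM to 6.75, 10.7 and 10.01 CPM (1.32 ± 0.24, adjusted p = 0.00773). The calls of Eprs and Aars did not hold in every fit that left out 1 library. Eprs was lost without KO 1 or KO 2, largest adjusted p 0.0568, and Aars without KO 1, KO 2 or KO 3, largest adjusted p 0.148. Lower genes in the list numbered 11 without WT 1, 1 without KO 1 and 1 without KO 2.

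Antibody RNA was lower in KO cells and its classes were differently divided. The immunoglobulin constant genes took 2.19%, 1.78% and 1.84% of all counts in WT and 1.12%, 1.13% and 1.10% in KO (exact permutation p = 0.1, the smallest possible). Ighe, the constant region of IgE, drew the most counts of all genes that fell. It stood at 9079, 8529 and 8139 CPM in WT and 1721, 1504 and 1377 CPM in KO (-2.48 ± 0.16, adjusted p = 2.04e-05). Every KO library lay far below every WT library, but the adjusted p was 0.059 in the 4-group model. Igkc, the constant region of the kappa light chain, fell from 5734, 4669.99 and 5372 CPM to 2636, 3021 and 2586 CPM (-0.94 ± 0.15, adjusted p = 0.00413), and its adjusted p was 0.157 in that model.

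Ighd, the constant region of IgD that marks mature naive B cells, had the largest rise of the named genes. Its level was 16, 15.2 and 24 CPM in WT and 201, 265 and 347 CPM in KO (3.88 ± 0.24, adjusted p = 2.04e-05), with groups far apart. Ighm and Ighg1, given here after their values were seen because they complete the comparison of classes, did not pass. Ighm stood at 2773, 1780.5 and 2616 CPM in WT and 3139, 3521 and 3366 CPM in KO (0.48, adjusted p = 0.163), and Ighg1 at 2755, 2233 and 2283 CPM in WT and 2820.4, 2924 and 2810.03 CPM in KO (0.23, adjusted p = 0.413). Ighg3 rose from a low level, 6.18, 4.91 and 10.02 CPM to 15.1, 14.9 and 18.3 CPM (1.19, adjusted p = 0.0185), and Ighg2c fell, 2.14, 1.42 and 3.07 CPM to 0.0561, 0.618 and 0.0582 CPM (-3.19, adjusted p = 0.0338). The call of Ighg3 did not hold without WT 1, WT 2, KO 2 or KO 3, largest adjusted p 0.0985, and that of Ighg2c without WT 3, KO 1 or KO 3, largest adjusted p 0.128. Over the 12 constant genes, 4 fell and 2 rose (50% called, against 5.61% over all genes tested, median -0.13).

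As a share of heavy chain constant counts, Ighe made up 62%, 67.8% and 62.2% in WT and 21.8%, 18.2% and 17.4% in KO. Ighm took 18.9%, 14.2% and 19.98% in WT and 39.7%, 42.7% and 42.4% in KO. Ighg1 took 18.8%, 17.8% and 17.4% in WT and 35.6%, 35.5% and 35.4% in KO. Ighd rose as a share from 0.109%, 0.121% and 0.183% to 2.54%, 3.22% and 4.38%. None of these 4 shares overlapped between the genotypes (exact permutation p = 0.1 for each, the smallest possible). The shares are of counts, not corrected for gene length, and sum to 100% with the minor classes, so a lower share of Ighe raises the others. Counts per gene do not separate membrane from secreted transcripts, nor germline from switched ones.

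**Figure D4:**
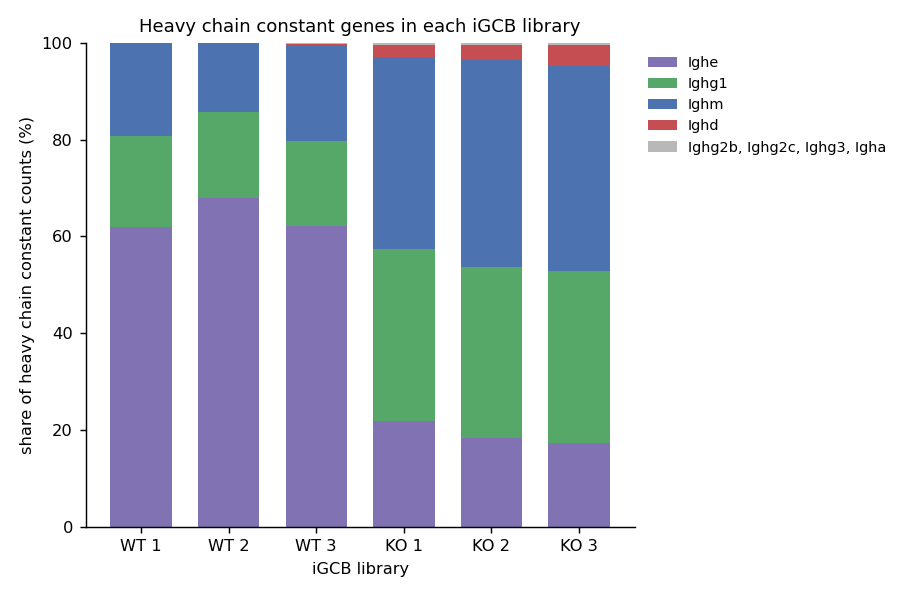
Share of each heavy chain constant gene in the counts of all heavy chain constant genes (%, vertical axis) in the 6 iGCB libraries. Ighe makes up over 60% in each WT library and 17.4% to 21.8% in each KO library.

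V, D and J segments were lower in KO cells nearly throughout. Of 239 segments tested, 176 fell and 0 rose, 235 differences were below 0 and the median was -1.78. By type, 89 of 105 V segments of the heavy chain fell (median -1.97). For the light chains, 80 of 105 kappa segments (median -1.72) and 2 of 3 lambda segments (median -1.92) did so. Of 7 heavy chain D segments and 4 heavy chain J segments 0 passed (medians -0.86 and -0.84), and 1 of 5 kappa J segments fell. The segments took 0.659%, 0.469% and 0.986% of counts in WT and 0.227%, 0.204% and 0.204% in KO (exact permutation p = 0.1). WT libraries differed more among themselves than KO libraries did, and WT 3 was the highest. Lower segments numbered 164 without WT 3, 130 to 179 without any other library, and 96 in the 4-group model. Because such segments resemble each other closely, reads may be divided among near-identical copies, and single segments are not reported.

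Several genes of naive B cells were higher in KO cells. Of 30 follicular B cell genes tested, 7 rose and 1 fell (26.7% called, against 5.61% over all genes tested, median 0.22). Bank1, a scaffold of B cell receptor signalling, rose from 18.4, 11.5 and 11.4 CPM to 83, 112 and 111 CPM (2.89 ± 0.21, adjusted p = 7.92e-05). Every KO library was above every WT library. The level was still far from that of the naive libraries, where Bank1 stood at 824 to 1389 CPM in a scaling over all 10 libraries.

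The gene of this list that fell was S1pr1, the receptor that guides lymphocytes out of tissue along sphingosine-1-phosphate: 31.6, 15.3 and 15.6 CPM in WT and 6.53, 4.01 and 3.67 CPM in KO (-2.13 ± 0.32, adjusted p = 0.00315). Other homing receptors rose. Ccr6, the receptor for Ccl20, stood at 1.5, 1.39 and 1.46 CPM in WT and 8.66, 12.3 and 8.61 CPM in KO (2.76 ± 0.25, adjusted p = 0.000167). Ffar2, a receptor for short-chain fatty acids, rose from 8.31, 8.22 and 13.4 CPM to 32, 52.4 and 41.9 CPM (2.07 ± 0.24, adjusted p = 0.000633). The groups did not overlap for these 3. Of 24 homing and egress genes, 3 rose and 1 fell (16.7% called, against 5.61% over all genes tested). Ccr7, Cxcr4 and Cxcr5, given after their values were seen, did not pass (0.1, -0.56 and 0.25). The count of 7 higher follicular genes was 11 without WT 1 and 4 without KO 2.

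A minority of the germinal center genes passed the test. Of 29 tested, 6 rose and 1 fell (24.1% called, against 5.61% over all genes tested, median 0.10). Besides Cd38, the higher genes named by size were Elk3, an ETS family factor (24.5, 30.03 and 26.9 CPM in WT, 49.3, 47.7 and 50.5 CPM in KO, 0.86 ± 0.13, adjusted p = 0.00352), and Nedd9, a docking protein of cell adhesion (181, 154 and 155 CPM, 295, 277 and 315 CPM, 0.86 ± 0.12, adjusted p = 0.00222). Neil1, a base excision repair glycosylase, fell from 448, 550.3 and 423 CPM to 266, 269 and 225 CPM (-0.9 ± 0.14, adjusted p = 0.00373). In the scaling over all 10 libraries, naive WT libraries held 492 and 298 CPM of Cd38 and 73.8 and 66.2 CPM of Elk3. They held 544 and 484 CPM of Nedd9 and 61.5 and 51.1 CPM of Neil1. These values stand above the WT iGCB levels for Cd38, Elk3 and Nedd9 and below them for Neil1. Bcl6, the factor that sets the germinal center state and opposes Prdm1, was chosen after its values were seen. It stood at 86.9, 66.4 and 56.9 CPM in WT and 122, 97.1 and 113 CPM in KO (0.66 ± 0.17, adjusted p = 0.0421). Its groups did not overlap, but the call did not hold without WT 2, WT 3, KO 1, KO 2 or KO 3, largest adjusted p 0.159. Cd83, a surface protein of light zone B cells, rose from 639, 626 and 553 CPM to 959, 1064 and 896 CPM (0.68 ± 0.13, adjusted p = 0.0108).

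In the B cell receptor pathway 3 of 32 genes rose and 1 fell (median 0.15), a share of 12.5% called against 5.61% over all genes tested. Lck, a Src family kinase best known from T cells, rose from 23.6, 16.5 and 23.9 CPM to 59.5, 68.4 and 65.6 CPM (1.6 ± 0.17, adjusted p = 0.000354). Cd79a, the signalling chain of the receptor, fell from 782, 805 and 777 CPM to 384, 442 and 338 CPM (-1.02 ± 0.13, adjusted p = 0.00143). Its partner Cd79b did not pass (0.47, adjusted p = 0.102). Mb1-Cre is placed in Cd79a, and with the Cre status of WT not given, Cre insertion and Pcbp1 loss cannot be told apart for this gene. Ms4a1, which encodes CD20, stood at 560.2, 369.97 and 382 CPM in WT and 651, 782 and 715 CPM in KO (0.71 ± 0.17, adjusted p = 0.0359), and its call did not hold without WT 2, WT 3, KO 1, KO 2 or KO 3, largest adjusted p 0.144.

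The largest fold changes also included genes outside these lists. On the higher side stood Rundc3a (3.55, 2.4 and 2.26 CPM in WT, 16.8, 23.4 and 20.2 CPM in KO, 2.88 ± 0.23, adjusted p = 0.000117) and Gbp2b, an interferon-induced GTPase (10.02, 5.43 and 5.06 CPM, 33.8, 45.7 and 39.3 CPM, 2.54 ± 0.26, adjusted p = 0.00031). Klrb1f, a lectin-like receptor of the natural killer gene complex, stood at 24.4, 18.3 and 9.27 CPM and 139.97, 56.8 and 68.8 CPM (2.35 ± 0.38, adjusted p = 0.00442). In each of these 3 the lowest KO library was above the highest WT library, as the rule that named them required. The protease gene Klk8, the mucin gene Muc3a, the transcription factor gene Onecut2 and Ogdhl, a relative of oxoglutarate dehydrogenase, rose by 2.57, 2.27, 2.15 and 2.34 from at most 3.71 CPM in any WT library. Fcrls and P2ry13 rose too (2.61 and 2.02). The call of Fcrls did not hold without KO 2 or KO 3, largest adjusted p 0.0621, and that of P2ry13 without WT 3, KO 1, KO 2 or KO 3, largest adjusted p 0.0997.

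On the lower side, Adgrl2, a latrophilin adhesion receptor, stood at 28.7, 5.41 and 12 CPM in WT and 1.07, 0.618 and 1.16 CPM in KO (-4.01 ± 0.56, adjusted p = 0.00186). Its WT libraries differed widely, with WT 1 the highest, yet all were above the KO range. Hid1, a Golgi protein of secretory granule formation, fell from 17.6, 9.39 and 12.8 CPM to 1.77, 1.3 and 0.756 CPM (-3.38 ± 0.34, adjusted p = 0.000329). Mpzl2, an adhesion protein, fell from 67.4, 191 and 88.4 CPM to 17.3, 18.1 and 24.4 CPM (-2.54 ± 0.34, adjusted p = 0.00144). The potassium channel gene Kcnj3, the RNA-binding protein gene Rbm47, the intermediate filament gene Nes and the enamel matrix gene Enam fell by 2.75, 2.33, 2.32 and 2.35 on the log2 scale. Their groups did not overlap, which the naming rule required. All of the genes in this paragraph kept the threshold when any 1 library was left out.

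Class I antigen presentation genes fell in part. Of 25 tested, 6 fell and 0 rose (24% called, against 5.61% over all genes tested, median -0.29). All 6 are class I heavy chain genes of the H2 complex on chromosome 17, of which H2-Q5 is annotated as a polymorphic pseudogene. H2-Q7, a nonclassical class I gene, stood at 97.5, 162 and 175 CPM in WT and 27.9, 22.8 and 27.3 CPM in KO (-2.48 ± 0.21, adjusted p = 0.00013). Its neighbours H2-Q6 and H2-Q5 fell from 123, 179 and 210.3 CPM to 44.2, 50.02 and 50.9 CPM and from 33.9, 54.1 and 63.6 CPM to 17.2, 13 and 17.3 CPM (-1.82 and -1.67). The classical gene H2-K1 stood at 928, 1210.3 and 1313 CPM in WT and 618, 748 and 607 CPM in KO (-0.81 ± 0.16, adjusted p = 0.0133), and H2-D1 fell by 0.95 (adjusted p = 0.0086). The calls of H2-K1 and H2-D1 were both lost without KO 1 or KO 3 (largest adjusted p 0.0854 and 0.0546), and the count of 6 was 3 without KO 1 and 3 without KO 3. The H2-Q genes are near-identical copies among which reads can be split, so their single values are uncertain. In the 5 Mb to each side of H2-Q7, 8 of 193 other tested genes fell (4.15%) and 1 rose (0.518%), against 3.47% and 2.14% over all genes tested. With the V, D and J segments left out, none of which lie in this window, the shares over all genes were 2.21% and 1.96%. Of the 8, 5 were the other class I genes counted above. In class II, H2-Oa fell (-0.86, adjusted p = 0.0187) and H2-Ob rose (0.54, adjusted p = 0.0329), the 2 chains of the peptide-loading regulator H2-O. H2-Oa did not hold without WT 2, KO 1 or KO 3, largest adjusted p 0.0803, and H2-Ob without WT 2, WT 3, KO 1, KO 2 or KO 3, largest adjusted p 0.113.

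Most differences of cell division genes lay below 0, though few passed the test. Of 43 S phase genes 5 fell and 0 rose, with 40 differences below 0 (median -0.28). Of 39 genes of G2 and mitosis 2 fell and 0 rose, with 38 below 0 (median -0.27). The lower genes were 11.6% and 5.13% of these lists, against 3.47% over all genes tested, or 2.21% with the V, D and J segments left out. Pole2, a subunit of DNA polymerase epsilon, stood at 241, 229.9 and 214 CPM in WT and 139, 117 and 117 CPM in KO (-0.88 ± 0.12, adjusted p = 0.0019). Racgap1, which organises the cleavage furrow, fell from 210.4, 192 and 225 CPM to 137, 120.2 and 116 CPM (-0.75 ± 0.12, adjusted p = 0.00474). Both held without each library in turn. The ligase Lig1, the licensing factor Cdc6, the methylation reader Uhrf1 and the kinesin Kif20a fell by 0.56 to 0.68. Their calls did not hold in every fit that left out 1 library. Lig1 did not hold without WT 2, WT 3, KO 1, KO 2 or KO 3, largest adjusted p 0.189, Cdc6 without WT 3, KO 1, KO 2 or KO 3, largest adjusted p 0.175, Uhrf1 without KO 1 or KO 2, largest adjusted p 0.0947, and Kif20a without WT 2, KO 1, KO 2 or KO 3, largest adjusted p 0.0836. The S phase count was 1 without KO 1 or KO 2, 2 without WT 3 or KO 3, and 3 without WT 2. Of 31 genes of class switching, mutation and end joining, 2 fell (6.45%, against the same 3.47% or 2.21%). They were the end-joining genes Lig4 (-1.07, adjusted p = 0.00493) and Xrcc6 (-0.8, adjusted p = 0.00617).

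Most differences of cytosolic ribosome genes lay above 0. Of 62 tested, 2 rose (3.23%, against 2.14% over all genes tested) and 0 fell, while 57 differences were above 0 (median 0.30). Over all genes tested, 7774 of 15377 were above 0. Rpl6, a protein of the large subunit, rose by 0.53 (adjusted p = 0.0478), and its call did not hold without WT 1, WT 2, KO 1, KO 2 or KO 3, largest adjusted p 0.149. The number of higher ribosomal genes was 14 without WT 3 and 1 without any other library, and as a share of counts the list overlapped between the groups at 5.56%, 6.08% and 8.04% in WT and 7.61%, 9.25% and 7.37% in KO (exact permutation p = 0.3). WT 3 was the WT library with the highest share. Pabpc1, the poly(A)-binding protein of the cytoplasm, rose from 2393, 2757 and 2029 CPM to 3626, 3848 and 3913 CPM (0.67 ± 0.15, adjusted p = 0.0283), and Eif3f, an initiation factor subunit, by 0.56 (adjusted p = 0.0363). Pabpc1 did not hold without WT 1, KO 1, KO 2 or KO 3, largest adjusted p 0.11, and Eif3f without WT 1, WT 2, KO 1, KO 2 or KO 3, largest adjusted p 0.12. Of 35 Myc and ribosome biogenesis genes and of 38 splicing regulators and RNA-binding proteins, 0 passed with edgeR (medians -0.053 and 0.015). At an unadjusted p under 0.05 there were 2 and 1, against 2970 of 15377 over all genes tested. DESeq2 called 1 and 0, and limma-voom 0 in both.

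Metabolic genes changed one by one. Galk1, which phosphorylates galactose in the first step of its use, stood at 65.2, 90.5 and 101 CPM in WT and 15.9, 19.4 and 13.4 CPM in KO (-2.4 ± 0.20, adjusted p = 0.000117). Got1, the cytosolic aspartate aminotransferase, fell from 69.4, 86.9 and 121 CPM to 22.3, 27.4 and 24 CPM (-1.91 ± 0.20, adjusted p = 0.000354). Idh2, the mitochondrial isocitrate dehydrogenase that makes NADPH, fell from 75.7, 77.5 and 91.2 CPM to 42.2, 43.6 and 38.6 CPM (-0.97 ± 0.13, adjusted p = 0.00154). The KO and WT ranges were apart for all 3. Gsr, which reduces oxidised glutathione, fell by 0.82 (adjusted p = 0.00625). The glucose transporter gene Slc2a3 rose from 83.4, 84.3 and 57.7 CPM to 161, 145 and 123 CPM (0.93 ± 0.17, adjusted p = 0.00771). In the list of glycolysis, pentose phosphate and hexose genes 4 of 40 rose and 2 fell (15% called, against 5.61% over all genes tested), and the median was -0.011. The 4 higher genes became 2 without any 1 WT library, 1 without any 1 KO library and 0 in the 4-group model, and the 2 lower genes became 1 without WT 2, KO 1 or KO 3. Aldoc, a glycolytic aldolase (0.83), did not hold without KO 1, KO 2 or KO 3, largest adjusted p 0.108. In cholesterol and fatty acid synthesis 1 of 36 fell (2.78%), near the share lower over all genes tested. That share was 3.47%, or 2.21% with the V, D and J segments left out. The gene was the desaturase Fads2 (-0.53), which did not hold without WT 1, KO 1, KO 2 or KO 3, largest adjusted p 0.136.

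Pcbp1 is an iron chaperone, so iron genes were looked at as a list. Of 26 tested, 1 rose and 3 fell (15.4% called, against 5.61% over all genes tested, median -0.11). Tfr2, transferrin receptor 2, rose from 0.75, 1.45 and 0.992 CPM in WT to 6.45, 7.29 and 7.51 CPM in KO (2.73 ± 0.30, adjusted p = 0.000515). Its level stayed low in both groups. Tfrc, the main transferrin receptor, stood at 675, 573 and 640.1 CPM in WT and 470.1, 459.8 and 392 CPM in KO (-0.51 ± 0.13, adjusted p = 0.0456). Its call did not hold without WT 1, WT 2, KO 1, KO 2 or KO 3, largest adjusted p 0.193. Slc39a8, a zinc and iron importer, fell by 1.20 (adjusted p = 0.0095), and Blvrb, a biliverdin reductase, by 0.74 (adjusted p = 0.0155). Slc39a8 did not hold without KO 3, largest adjusted p 0.0535, and Blvrb without KO 1 or KO 3, largest adjusted p 0.0943. Of 30 genes of iron-sulfur clusters and heme 1 fell (3.33%), near the share lower over all genes tested. That share was 3.47%, or 2.21% with the V, D and J segments left out. The gene was the ferredoxin reductase Fdxr (-0.96, adjusted p = 0.0279), which did not hold without WT 3, KO 1, KO 2 or KO 3, largest adjusted p 0.108.

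No gene of the respiratory chain or of the other mitochondrial lists passed the test. Of 43 nuclear genes of complex I, 47 of complexes II to V, 44 of the mitochondrial ribosome, 56 of mitochondrial import, quality control and dynamics, and 13 of the mitochondrial genome, 0 passed in either direction with edgeR. Over the 203 genes of these 5 lists, 17 had an unadjusted p under 0.05, against 2970 of 15377 over all genes tested. DESeq2 called 4 and limma-voom 0. The list medians were -0.096, -0.087, 0.012, -0.014 and 0.20. The gene with the smallest p of the complex I list was Ndufv2, a subunit that carries an iron-sulfur cluster (96.9, 118 and 120.5 CPM in WT, 149, 185 and 135 CPM in KO, 0.48, adjusted p = 0.092). Mitochondrial genome counts made up 4.40%, 3.86% and 2.71% in WT and 4.33%, 4.14% and 4.82% in KO, with overlapping groups (exact permutation p = 0.3).

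Signalling and survival genes changed one by one. Egr1, an immediate early factor induced by receptor signals, stood at 5.37, 8.3 and 4.81 CPM in WT and 13.8, 16.9 and 22.7 CPM in KO (1.53 ± 0.25, adjusted p = 0.00516). It was the 1 of 23 immediate early genes to pass (4.35%, against 5.61% over all genes tested). Tnfrsf13c, the BAFF receptor, rose from 135, 159 and 91.2 CPM to 233, 278 and 239 CPM (0.96 ± 0.19, adjusted p = 0.0111), and its call did not hold without KO 2, largest adjusted p 0.0563. Il6st, the shared chain of the interleukin 6 receptors, fell by 0.89 (adjusted p = 0.00966) and Il2ra, the alpha chain of the interleukin 2 receptor, rose by 0.70 (adjusted p = 0.0409). Il6st did not hold without KO 3, largest adjusted p 0.0664, and Il2ra without WT 1, WT 3, KO 1, KO 2 or KO 3, largest adjusted p 0.167. Bcl2, which blocks apoptosis, rose by 0.61 (adjusted p = 0.0256) and its relative Bcl2l2 fell by 0.72 (adjusted p = 0.0365). Bcl2 did not hold without WT 2, WT 3, KO 1 or KO 3, largest adjusted p 0.125, Bcl2l2 without WT 2, WT 3, KO 1, KO 2 or KO 3, largest adjusted p 0.152, and the third called gene of that list, Bcl2a1d (0.6), without each library in turn, largest adjusted p 0.161. Of 33 p53 targets 0 passed with edgeR (median 0.089), while DESeq2 called 3 and limma-voom 0. At an unadjusted p under 0.05 there were 13, against 2970 of 15377 over all genes tested.

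Interferon response genes split. Of 40 tested, 4 rose and 3 fell (17.5% called, against 5.61% over all genes tested, median -0.26). The 4 that rose were all guanylate-binding proteins, GTPases that are induced most by interferon gamma. Gbp2 stood at 46.4, 42.7 and 26.3 CPM in WT and 109.9, 128 and 106 CPM in KO (1.58 ± 0.20, adjusted p = 0.00112). Gbp3, Gbp5 and Gbp7 rose by 1.19, 1.12 and 1.17, Gbp5 being named to complete the count. Gbp7 did not hold without KO 3, largest adjusted p 0.0619. Irf7, the factor that amplifies the type I response, fell from 5.77, 8.03 and 4.31 CPM to 2.47, 1.85 and 3.2 CPM (-1.27 ± 0.31, adjusted p = 0.0394) and did not hold without WT 1, WT 2, KO 1, KO 2 or KO 3, largest adjusted p 0.155. The other 2 lower genes, named to complete the count, were Isg20 (-1.002), not past the threshold without KO 3, largest adjusted p 0.0515, and Trim25 (-0.6), not past the threshold without WT 2, KO 1, KO 2 or KO 3, largest adjusted p 0.145.

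**Figure D5:**
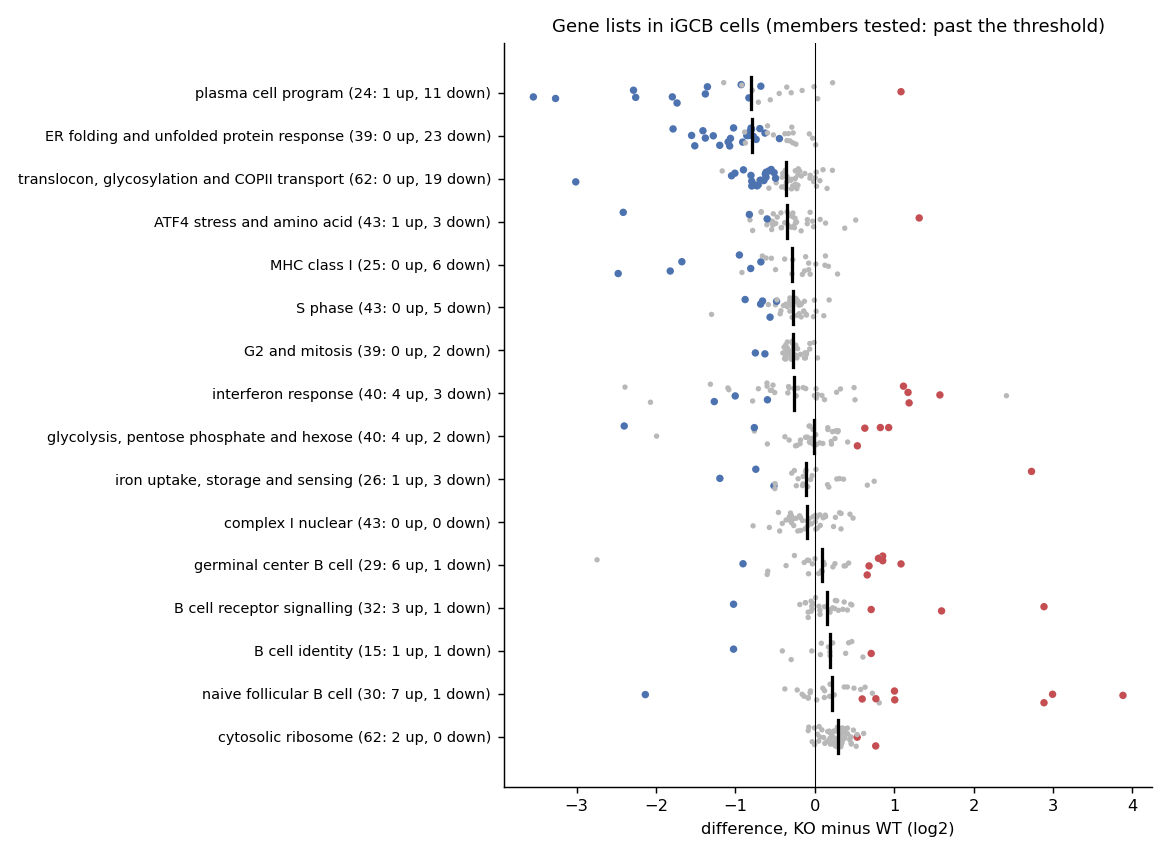
Difference between KO and WT (log2, horizontal axis) of every tested member of 16 gene lists. Blue points fell, red points rose, grey points did not pass the threshold, black bars are list medians and the numbers give the members tested and called; the secretory lists at the top lie mostly left of 0 and the cytosolic ribosome list at the bottom mostly right of it.

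Most markers of other cells were low, a few were not, and some moved between the groups. The defining T cell genes Cd3e, Cd3d, Cd3g and Cd4 stayed under 0.5 CPM in every library. Cd8a, Trac and Lat of the same list reached 0.741, 1.29 and 2.73 CPM. The T cell list summed to 312 to 448 CPM in WT and 317 to 390 CPM in KO. Nearly all of it was Thy1 (283, 359 and 416 CPM and 253, 308 and 318 CPM). Besides Lck none of the 8 tested genes of the list passed (12.5% called, against 5.61% over all genes tested). The fibroblast list of the feeder, without Thy1, summed to 60.4 to 110.2 CPM in WT and 55.8 to 110.1 CPM in KO, and 0 of its 20 tested genes passed. Dendritic cell markers summed to 236 to 371 CPM and 278 to 378 CPM, with Clec9a and Siglech at 0, and 0 of 8 tested genes passed. Most of the sum came from Ccr7 (168, 208 and 128 CPM in WT, 187, 224 and 129 CPM in KO), Flt3 and Zbtb46. Flt3 stood at 39.4, 77.2 and 30.6 CPM in WT and 69.7, 77.4 and 71.5 CPM in KO. Zbtb46 stood at 38.6, 45.5 and 31.1 CPM in WT and 47.8, 42.7 and 43.4 CPM in KO. For the erythroid and platelet list the sums were 5.69 to 7.21 CPM and 6.61 to 11.7 CPM, with 0 of 6 passing.

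Of the myeloid and natural killer markers, 1 in each list passed the test (11.1% and 20% called, against 5.61% over all genes tested). Most differences in both lists lay above 0. In the myeloid list 8 of 9 tested differences were above 0 (median 1.54), and 6 had an unadjusted p under 0.05. In the natural killer list 4 of 5 were above 0 (median 0.67), and 4 had an unadjusted p under 0.05 in either direction. Over all genes tested, 2970 of 15377 had such a p. The myeloid list summed to 29.8 to 49.5 CPM in WT and 47.4 to 90.2 CPM in KO, with groups that overlapped. Of its 9 tested genes 1 passed, Itgam (0.346, 0.655 and 0.595 CPM and 2.47, 1.24 and 2.18 CPM, 1.87, adjusted p = 0.034), and Ly6g, S100a8, Cd163 and Marco were at 0. Itgam did not hold without WT 1, WT 2, WT 3, KO 1 or KO 3, largest adjusted p 0.135. Lyz2, the lysozyme of macrophages, stood at 4.3, 12.4 and 13.8 CPM in WT and 40.6, 11.1 and 37.1 CPM in KO (adjusted p = 0.0942), so KO 2 lay within the WT range. The natural killer list summed to 14.3 to 22.1 CPM in WT and 29.9 to 36.9 CPM in KO, with groups that did not overlap. Of its 5 tested genes 1 passed, the granzyme gene Gzmb (1.67, 1.75 and 3.62 CPM and 10.1, 5.43 and 8.38 CPM, 1.76, adjusted p = 0.0139), not past the threshold without WT 2, KO 1 or KO 3, largest adjusted p 0.0674, while Ncr1 and Klrk1 were at or near 0. Eomes, a transcription factor of the same list chosen after its values were seen, stood the other way, at 6.18, 2.16 and 3.03 CPM in WT and 1.43, 0.772 and 1.75 CPM in KO (-1.52, adjusted p = 0.0835). The part of such cells in the low-level genes that rose, Fcrls and P2ry13 among them, was not tested.

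Position on the chromosome was examined around the deleted gene and the Cre. In the 5 Mb to each side of Pcbp1, 111 genes were tested, 2 rose (1.8%) and 6 fell (5.41%), against 2.14% and 3.47% over all genes, or 1.96% and 2.21% with the V, D and J segments left out, none of which lie in this window. Besides 1600020E01Rik the lower ones were Rpn1, Sec61a1 and Copg1, which belong to the secretory list, and Mxd1 and Mgll, and the higher ones were Gkn3 and Gm44198. Except for Rpn1 and 1600020E01Rik these were chosen after their values were seen. Copg1 did not hold without KO 1, KO 2 or KO 3, largest adjusted p 0.122, Mxd1 without KO 2 or KO 3, largest adjusted p 0.0673, Mgll without WT 2, KO 2 or KO 3, largest adjusted p 0.118, Gkn3 without KO 3, largest adjusted p 0.0546, and Gm44198 without WT 2, WT 3, KO 1 or KO 3, largest adjusted p 0.152. Around Cd79a, where Mb1-Cre sits, 2 of 134 genes rose and 2 fell (1.49% each).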

How the data were processed

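Gene expression was measured by RNA-seq of total RNA with an mRNA library kit, per the labels' protocols. The authors deposited 1 table of whole-number counts for each gene symbol, made with featureCounts on mm10 per the submitters' processing notes. Aligner, annotation, versions and strandedness of counting: not given in the sources used here. All values were whole numbers over 55492 symbols. Odd values made up 17.7% to 25.9% of counts from 1 to 20, as when each mate of a pair adds its own count, and counts are then not independent fragments. No column lacked a sample.

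The 6 iGCB columns were fitted alone. edgeR 4.0.16 (R 4.3.3) kept genes by filterByExpr per group (minimum count 10), scaled with TMM factors and ran a two-sided quasi-likelihood test with 4 residual degrees of freedom and Benjamini-Hochberg adjustment at 0.05. SE is the absolute log2 difference over the square root of F. CPM used TMM-scaled totals. Shares were tested by exact permutation. The pipeline was tested on simulated data. Alternatives, 17 in all, covered gene sets, scaling, filters, halved counts, a replicate block, single libraries left out, DESeq2 1.42.0, limma-voom 3.58.1 and a 4-group model. Positions came from GENCODE M21, which held 96.2% of symbols, and promoters from RefSeq. Where a gene has several promoters, a match in any of them counted.

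The members and the 42 gene lists (1280 genes, 2 without a symbol in the table) were chosen with earlier results of these data known. Named genes are Pcbp1, Pcbp2 and 1600020E01Rik, the 15 largest folds in each direction among called genes whose mean log2 CPM is 2 or more and whose groups are apart (no segments, pseudogenes or predicted genes), the 8 with the highest level in each direction, up to 4 per list past the threshold or the 2 with the smallest p, and the 4 most abundant markers of each other cell type. Such genes are given where they bear on the text, and a few of them are not reported here.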

Additional observations from a re-analysis of the deposited data

Results flagged for a closer look

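The KO effect of 3 named genes differed between iGCB and naive cells in a test of the difference itself (interaction term over all 10 libraries, edgeR, adjusted over all genes). For Ighd the iGCB effect minus the naive effect was 3.56 ± 0.40 (SE, log2, adjusted p = 0.0219). Naive libraries held 2614 and 1814 CPM of Ighd in WT and 2995 and 2540.1 CPM in KO. For Jchain the difference was -3.65 ± 0.39 (adjusted p = 0.0219), with 267 and 231 CPM in naive WT and 268 and 381 CPM in naive KO. For Sec24d it was -3.61 ± 0.42 (adjusted p = 0.0243), with 14.1 and 8.42 CPM in naive WT and 21.8 and 12.1 CPM in naive KO. In naive cells none of the 3 passed the test (adjusted p of 1, 1 and 0.999). Pcbp1 itself did not pass there either (-5.59, adjusted p = 0.0561). Other named genes did, among them H2-Q7 (-3.80, adjusted p = 0.00183) and H2-Q6 (-2.66, adjusted p = 0.00183). Cd79a (-1.60, adjusted p = 0.0126) and Rundc3a (2.80, adjusted p = 0.0225) passed there as well. With 2 libraries per genotype, that test cannot show that a naive effect is absent.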

How the results depend on the processing

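Of the counts, 329 higher genes became 655 without a low-count filter, 549 with DESeq2, 72 in the 4-group model and 141 to 325 with 1 library left out. The 534 lower genes became 334 without V, D and J segments, 326 without immunoglobulin genes, 923 without a filter, 194 in the 4-group model and 303 to 554 with 1 library left out. Lower genes other than segments (358) became 721 without a filter, 598 with DESeq2, 98 in the 4-group model and 173 to 390 with 1 library left out, and the 176 lower segments became 96 in the 4-group model and 130 to 179. The cause of these changes was not tested, except where fewer genes entered by construction. RLE and library size scaling kept the counts within 1.5 times. Higher calls were 38.1% of all calls, 36.1% with RLE and 36.4% with library size alone. The series text speaks of WT and KO pairs without saying which libraries form one. The labels number the libraries. After group means were removed, WT and KO libraries of the same number correlated at 0.49, -0.15 and 0.03. WT 1 correlated best with KO 1 (0.49), WT 3 with KO 2 (0.35) and WT 2 with KO 3 (0.11). Whether these are the pairs of the series text was not tested, and no fit was blocked on them. A replicate block on the numbers called 370 higher and 528 lower genes, 169 lower segments and 359 other lower genes. It kept 757 of the 863 calls, and 10 of the 102 named calls did not pass (Rpl6, Eif3f, Ms4a1, Ighg2c, H2-Ob, Cdc6, Tfrc, Fads2, Irf7 and Bcl2l2, adjusted p from 0.0508 to 0.0813). Differences that changed sign, none past the threshold, were those of Pcbp2 (-0.0027 without a filter, -0.0012 with DESeq2, -0.034 to 0.046 with 1 library left out) and, with 1 library left out, Mpeg1 (-0.0024 to 0.37), Ccr7 (-0.087 to 0.29), Ppbp (-0.14 to 1.62), Fn1 (-0.44 to 0.30), Col1a1 (-0.57 to 0.011) and S100a6 (-0.052 to 0.27). Of the 102 named genes past the threshold, 64 kept it without any 1 library. Genes with a mean under 0 log2 CPM, where few counts stand behind a value, were called least often.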

Other observations

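Long intergenic noncoding RNAs were called higher more often than lower. Of 371 tested, 25 rose (6.74%) and 6 fell (1.62%), against 2.10% and 2.72% of 12201 protein-coding genes. The one with the firmest rise, chosen after its values were seen, was Gm19585 on chromosome 17, with 7.30, 10.1 and 10.3 CPM in WT and 102, 116 and 86.6 CPM in KO (3.45 ± 0.18, adjusted p = 7.04e-06). Its groups lay far apart and it kept the threshold without any 1 library. Clic5, an intracellular chloride channel protein and also chosen after its values were seen, had 1.04, 0.382 and 0.694 CPM in WT and 0 in each KO library (adjusted p = 0.0069). No fold is given for it, since no KO library held a count. Its few WT counts may also be mates counted singly.

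Calls were spread over expression levels. Among genes with a mean under 0 on the log2 CPM scale 0.771% rose and 0.807% fell, and among genes over 8 the shares were 1.93% and 4.32%.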
